A study of Drosophila melanogaster with 6 samples.

Results

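The sex determination genes of *Drosophila melanogaster* were followed on 6 GeneChip Drosophila Genome 2.0 arrays, 3 for the strain Canton-S and 3 for the strain D18. Members were the probe sets whose array annotation, with symbols brought up to date through the Release 6 gene table, names Sxl, tra, tra2, dsx, fru, ix or her and no other gene. This gave 16 probe sets of 7 genes, out of 18769 probe sets tested and 13647 that name 1 gene: 3 for Sxl, 2 for dsx, 7 for fru and 1 each for tra, tra2, ix and her. Both strains are wild type laboratory strains without a transgene or a treatment, Canton-S of North American and D18 of Russian origin, and each array was made from 250 ng of total RNA of pooled whole adults kept at 25 °C. The labels give an age of 3 days, the methods of the paper give 2–3 days and flies of both sexes, and no label gives the sex of a sample. The deposited values are log2 values, so a difference of 1 is 2-fold. The number of arrays limits the precision.

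In *Drosophila* the ratio of X chromosomes to autosomes sets the state of Sxl, an RNA-binding splicing regulator that is made as a functional protein in females. Sxl directs the splicing of its own transcripts and of those of tra, and Tra acts with Tra2 on the pre-mRNAs of dsx and fru. As a result dsx is spliced to a female and a male 3′ end that encode different transcription factors, and transcripts from the distal promoter of fru give a male form of a zinc finger protein of the nervous system. Ix, a subunit of the Mediator complex, works with the female form of Dsx, and her encodes a zinc finger protein that acts early in the hierarchy and also on yolk protein genes. Sxl and tra make RNA in both sexes that differs in splicing, so a probe set can rise, fall or stay level between the sexes depending on the exons it reads. Which exons the probe sets read was not given in the sources used here. By the naming of the manufacturer the ending _a_at marks probes shared among transcripts of the same gene. The ending _s_at marks probes shared among transcripts that can be of different genes. Whether another gene adds to the values of the _s_at probe sets was not tested.

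Canton-S replicate 3 and D18 replicate 2, the array pair below, stood apart from the other 4 arrays in genes of the reproductive tissues. For 14 accessory gland genes the median was 10.97 to 11.39 on this pair and 2.31 to 2.62 on the other 4, and 13 of the 14 were above the other 4 arrays on both. The median of 21 testis genes was 9.99 to 10.32 on the pair and 2.81 to 3.1 on the others, with 18 above the other 4 arrays, 2 below (twe and CycB3) and 1 overlapping. One of the 18 is svp, which was matched through the old synonym don and is not a testis marker. The median of 8 Y-linked genes was 4.19 to 4.24 on the pair and 1.58 to 1.72 on the others. Conversely, the median of 16 yolk and eggshell genes was 3.73 to 4.04 on the pair and 11.3 to 12.91 on the others, and that of 14 ovary genes was 4.0 to 4.3 on the pair and 9.02 to 9.73 on the others. Of the ovary genes 11 were below the other 4 arrays, 1 was above (bgcn, by 4.03) and 2 overlapped. Each strain holds 1 array of the pair. These 2 kinds of array were told apart by measured values, and the labels do not give them, so the members are described by kind of array without a test. In whole flies fewer cells of a type and less RNA per cell cannot be told apart.

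Of the members, dsx differed most between the kinds of array, and its 2 probe sets differed in opposite directions. The probe set 1640799_at read 8.97 for Canton-S replicate 3 and 8.44 for D18 replicate 2 on the pair, against 5.98 and 5.80 on Canton-S replicates 1 and 2 and 5.35 and 5.98 on D18 replicates 1 and 3. Both arrays of the pair were thus above all others, with a mean log2 difference of 2.93 (7.60-fold). The probe set 1623776_s_at read 3.98 for Canton-S replicate 3 and 2.68 for D18 replicate 2 on the pair, against 7.90 and 7.54 on Canton-S replicates 1 and 2 and 6.78 and 7.29 on D18 replicates 1 and 3. Here the pair was below all others, with a mean log2 difference of -4.05 (16.5-fold lower). Its value on D18 replicate 2 lay below the lower quartile of that array, 3.01. Within the strains the difference of the pair array from the other arrays was 3.08 in Canton-S and 2.77 in D18 for 1640799_at, and -3.74 and -4.35 for 1623776_s_at. Both directions held after quantile normalization and after a shift of the arrays to a common median. Which splice form of dsx either probe set reads was not tested, nor was the part of the reproductive tissues in these differences.

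**Figure D1:**
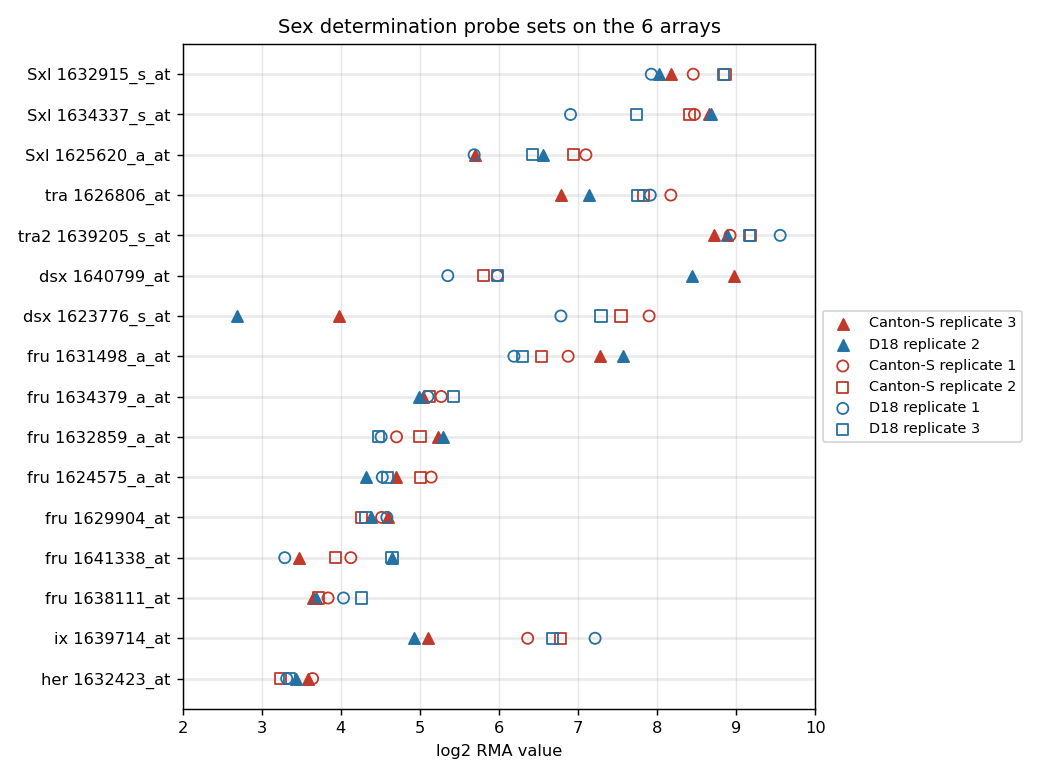
Log2 RMA values (horizontal axis) of the 16 sex determination probe sets (rows) on each of the 6 arrays, with filled triangles for Canton-S replicate 3 and D18 replicate 2 and open symbols for the other 4, Canton-S in red and D18 in blue. The triangles lie above the open symbols for dsx 1640799_at, at 8.97 and 8.44, and below them for dsx 1623776_s_at, at 3.98 and 2.68.

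The transcripts of ix and tra were lower on the pair than on all other arrays. For ix (1639714_at) the values were 5.11 for Canton-S replicate 3 and 4.92 for D18 replicate 2 on the pair, against 6.36 and 6.77 on Canton-S replicates 1 and 2 and 7.21 and 6.68 on D18 replicates 1 and 3. The mean log2 difference was -1.74 (3.34-fold lower), and it was -1.46 within Canton-S and -2.02 within D18. For tra (1626806_at), the switch gene between Sxl and dsx, the values were 6.79 and 7.14 on Canton-S replicate 3 and D18 replicate 2, against 8.17 and 7.82 on Canton-S replicates 1 and 2 and 7.91 and 7.76 on D18 replicates 1 and 3. This is a mean log2 difference of -0.95 (1.94-fold lower), with -1.21 within Canton-S and -0.70 within D18. For tra2 (1639205_s_at), which encodes the partner of Tra in splicing, the pair was at 8.72 and 8.89, against 8.92 and 9.18 on Canton-S replicates 1 and 2 and 9.55 and 9.17 on D18 replicates 1 and 3. The pair was again lowest, but D18 replicate 2 was only just below Canton-S replicate 1, and the mean log2 difference was -0.40. The ix, tra and tra2 probe sets stayed below the other 4 arrays under both other scalings.

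The 3 probe sets of Sxl did not share a pattern. The brightest, 1632915_s_at, read 8.18 for Canton-S replicate 3 and 8.02 for D18 replicate 2 on the pair, against 8.46 and 8.86 on Canton-S replicates 1 and 2 and 7.93 and 8.84 on D18 replicates 1 and 3, so the kinds of array overlapped. They also overlapped after quantile normalization, but with a common median the pair lay below the other 4 arrays, at a mean log2 difference of -0.89. On 1634337_s_at the pair was at 8.65 and 8.68, above 8.47 and 8.41 on Canton-S replicates 1 and 2 and 6.90 and 7.74 on D18 replicates 1 and 3. That probe set varied little in Canton-S and by 1.77 in D18, where the log2 difference of the pair array was 1.36, against 0.21 in Canton-S. With a common median the pair no longer lay outside the other 4 arrays on it. On 1625620_a_at the value of Canton-S replicate 3 was 5.69, against 7.10 and 6.94 on replicates 1 and 2, while D18 replicate 2 was at 6.55, against 5.68 and 6.42 on D18 replicates 1 and 3. The pair array was thus the lowest of its strain in Canton-S and the highest in D18.

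Of the 7 probe sets of fru, 2 were higher on the pair, 2 were lower and 3 overlapped with the other arrays. The brightest, 1631498_a_at, read 7.27 for Canton-S replicate 3 and 7.57 for D18 replicate 2 on the pair, against 6.87 and 6.53 on Canton-S replicates 1 and 2 and 6.19 and 6.29 on D18 replicates 1 and 3. Its mean log2 difference of 0.95 (1.93-fold) was the widest of the fru probe sets, with 0.57 within Canton-S and 1.33 within D18. The probe set 1632859_a_at followed with 5.23 and 5.29 on the pair, against values of up to 5.0 on the others, but under both other scalings it overlapped with them. On 1634379_a_at and 1638111_at the pair was lowest, with mean differences of -0.22 and -0.29. On 1629904_at the difference was 0.07, and it was -0.4 with a common median and -0.44 after quantile normalization, where this probe set and 1624575_a_at also lay below the other 4 arrays. For 1641338_at the difference was 0.06, and it was -0.41 and -0.26 under those scalings. The mean level of the 7 fru probe sets lay between 3.86 and 6.79, and 6 of the 7 were below the middle of all probe sets. For her (1632423_at) all 6 values were low, at 3.58 and 3.43 on the pair and between 3.23 and 3.64 on the others, near the lower quartiles of the arrays (2.96 to 3.09). Its mean difference was 0.12, and with a common median it was -0.34 and the pair lay below the other 4 arrays.

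**Figure D2:**
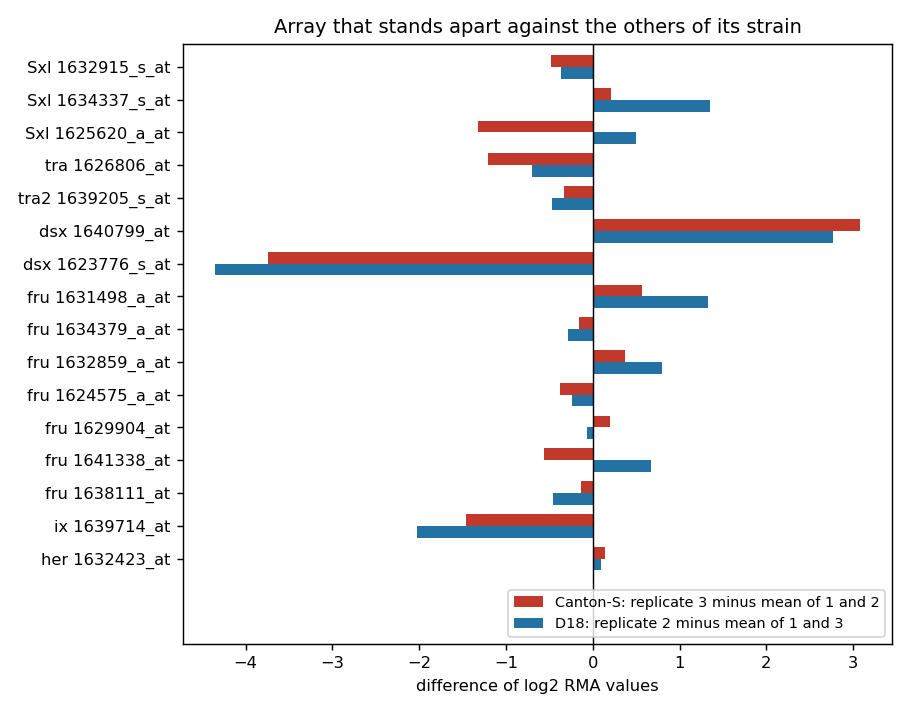
Difference of log2 RMA values (horizontal axis) between the array that stands apart and the mean of the other 2 arrays of its strain, for Canton-S (red) and D18 (blue), for each of the 16 probe sets. The bars of dsx reach 3.08 and 2.77 for 1640799_at and -3.74 and -4.35 for 1623776_s_at, and those of Sxl 1625620_a_at point in opposite directions.

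Across the members the pair was above the other 4 arrays on 4 of 16 probe sets and below them on 6 of 16. Over all 18769 probe sets these shares were 17.4% and 47.3%, and 64.6% lay outside the other 4 in either direction. The members were therefore not outside the other arrays more often than probe sets at large by this count. With a mean difference of more than 2-fold, 1 member was above (dsx 1640799_at) and 2 were below (dsx 1623776_s_at and ix), against 13.2% and 16.8% of all probe sets, and 30.0% in either direction. The median log2 difference was -0.26 for the members and -0.33 for all probe sets. With the arrays set to a common median the value of all probe sets was -0.8, and after quantile normalization it was -0.27. Relative to the median of all probe sets, tra2 differed by little and the 2 dsx probe sets and ix remained the widest under each scaling.

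By strain, no member was called. The paper called a probe set at p under 0.01, not adjusted, and more than 2-fold, and by that rule none of the 16 was called, against 1.27% of all probe sets in limma. None reached an adjusted p under 0.05, against 0.0373% of all. Without adjustment the count under 0.05 was 0 in limma, against 4.20% of all. The widest difference was that of dsx 1623776_s_at, with a mean of 6.47 ± 2.17 for Canton-S and 5.58 ± 2.53 for D18 (SD, n = 3), or 1.85-fold higher in Canton-S with a 95% interval of the log2 difference from -3.21 to 4.99. For dsx 1640799_at the means were 6.92 ± 1.78 for Canton-S and 6.59 ± 1.63 for D18 (SD, n = 3), with a 95% interval from -2.66 to 3.32. For tra the log2 difference was -0.01 with an interval from -1.10 to 1.09, and for ix it was -0.19 with an interval from -2.05 to 1.67. These intervals do not exclude a 2-fold difference in either direction. For tra2 the interval from -0.92 to 0.39 and for her that from -0.38 to 0.62 lay inside 2-fold.

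The lowest p was that of fru 1624575_a_at, at 5.14, 5.0 and 4.70 on Canton-S replicates 1, 2 and 3, against 4.52, 4.32 and 4.59 on D18 replicates 1, 2 and 3. It was the only member on which all Canton-S arrays were above all D18 arrays, an arrangement found for 5.62% of all probe sets, and no member had all Canton-S arrays below all D18 arrays (2.39% of all). The means were 4.95 ± 0.23 and 4.48 ± 0.14 (SD, n = 3), a 1.38-fold difference with an unadjusted p of 0.0729 and an adjusted p = 1 from limma. Sxl 1634337_s_at averaged 8.51 ± 0.13 for Canton-S and 7.77 ± 0.89 for D18 (SD, n = 3), 1.67-fold more in Canton-S, with a p of 0.172 before adjustment and an adjusted p = 1 from limma. All 3 Sxl probe sets had the higher mean in Canton-S, at log2 differences of 0.24, 0.36 and 0.74, but each interval included 0. When 1 array was left out, these ranged from 0.05 to 0.52 for 1632915_s_at, from 0.09 to 0.80 for 1625620_a_at and from 0.30 to 1.19 for 1634337_s_at. The lowest value of 1632915_s_at came without Canton-S replicate 2, and the lowest of the other two without D18 replicate 1.

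**Figure D3:**
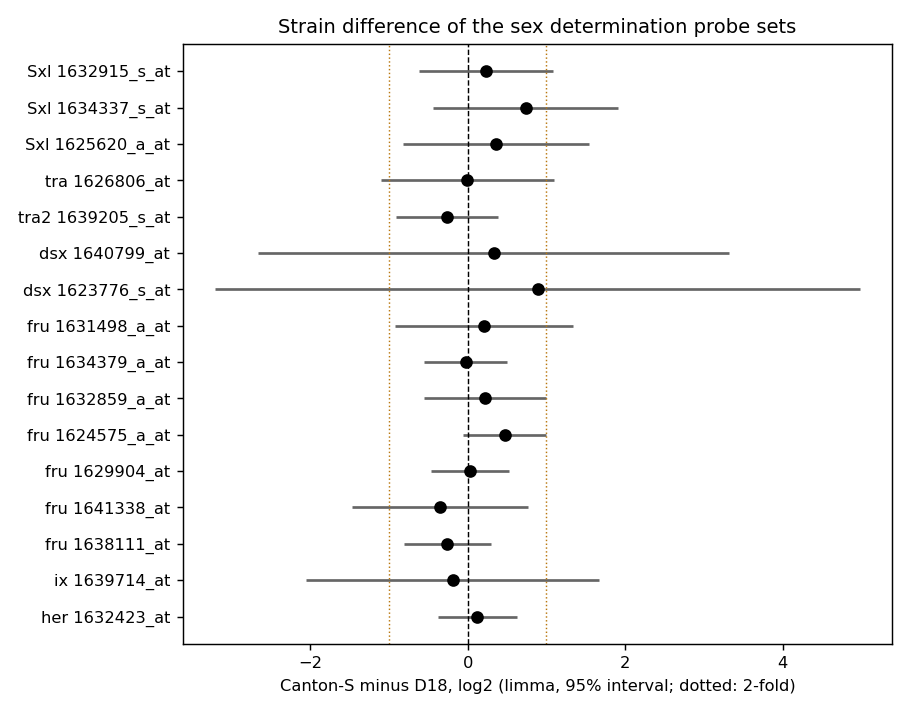
Canton-S minus D18 on the log2 scale (horizontal axis) for the 16 probe sets, with points for the difference of means of 3 arrays each, lines for the 95% interval from limma, a dashed line at 0 and dotted lines at 2-fold. All 16 intervals include 0, and those of dsx 1623776_s_at (-3.21 to 4.99) and dsx 1640799_at (-2.66 to 3.32) are the widest.

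Within each kind of array Canton-S and D18 could be set side by side. For dsx 1623776_s_at Canton-S was higher in both kinds, with a log2 difference of 1.30 between the arrays of the pair and 0.68 between the means of the other arrays. The 1.30 sets 1 array against 1, and D18 replicate 2, at 2.68, lay below the lower quartile of its array, 3.01. When the kind of array was added to the model as a block, the standard error of the strain difference was 0.23, against 1.64 with strain alone. For this probe set limma gave an unadjusted p of 0.00826 and an adjusted p = 0.222 with the block. It did not pass the thresholds of the paper because the difference stayed under 2-fold, and with the block 0 members passed them, against 2.38% of all probe sets. For fru 1624575_a_at the differences were 0.38 and 0.51, with an unadjusted p of 0.0142 and an adjusted p = 0.275 with the block from limma. These were the 2 members with an unadjusted p under 0.05 in that model, which 11.9% of all probe sets reached. For Sxl 1634337_s_at the arrays of the pair differed by -0.02 and the others by 1.12, and for Sxl 1625620_a_at by -0.86 and 0.97. The sign of the strain difference was the same in both kinds of array for 7 of the 16 probe sets and opposite for 9. In the pair each sign rests on 1 array per strain. Some of these differences were near 0, such as -0.02 for Sxl 1634337_s_at and -0.04 for fru 1638111_at. The share among all probe sets was not counted, so nothing is read from these signs.

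Genes that act with the members in splicing were mostly lower on the pair. Of 15 genes listed as partners or targets of Sxl 12 were measured, among them the writers of N6-methyladenosine and splicing factors of the U2AF group. Of the 12, 11 were below the other 4 arrays, against 47.3% of all probe sets. The median log2 difference was -1.13 against -0.33 for all probe sets. The RNA-binding protein gene nito read 6.20 and 6.02 on the array pair and 7.71 to 8.55 on the other 4, a difference of -2.0. For Mettl14, a subunit of the methyltransferase, the difference was -1.70, and for Unr, which binds msl-2 RNA together with Sxl, it was -1.44. The gene msl-2, a target of repression by Sxl and a subunit of the dosage compensation complex, was above the other 4 arrays, at 7.25 and 6.59 against 5.55 to 6.25, a difference of 0.92 that was 0.46 and no longer outside the other 4 with a common median. It was named after its values were seen. Of 4 measured splicing partners of Tra and Tra2 among 8 listed, 3 were lower (47.3% of all probe sets): SF2 at -1.43, RnpS1 at -1.33 and B52 at -1.06. The median log2 difference of the 4 was -1.19, against -0.33 for all probe sets. These are values of the brightest probe set of each gene. The 5 probe sets of B52 ranged from -1.98 to 0.41, of which 2 were below the other 4 arrays and 3 overlapped, and the 2 of SF2 from -1.43 to 0.13. Both probe sets of nito were below, at -2.0 and -0.52. Of 6 measured genes of the X chromosome signal among 8 listed, 3 were lower on the pair, with dpn at -1.83, upd1 at -1.39 and da at -0.98, and 3 overlapped. Of all probe sets 47.3% were lower on the pair, and the median log2 difference was -0.69 for this list and -0.33 for all probe sets, so nothing is read from this count. By strain none of these genes was called at the thresholds of the paper, and none had an unadjusted p under 0.05 from limma. Of the ovary genes 11 of 14 were lower on the same arrays (median of the list 4.0 to 4.3 against 9.02 to 9.73), and their part in these differences was not tested.

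Of 9 measured genes among the 12 listed downstream of dsx and fru, 5 were below the other 4 arrays, 1 was above (nAChRalpha1) and 3 overlapped. The brighter of the 2 probe sets of nAChRalpha1 was above, at 0.60, and the other overlapped, at -0.28. The shares of all probe sets were 47.3% below and 17.4% above, and the median log2 difference was -0.24 for this list and -0.33 for all probe sets. The 5 were Yp1, Yp2, Yp3, Fad2 and Lgr3. The yolk protein genes are also in the list of yolk and eggshell genes on which the array pair stood apart, so their values are a description and support nothing. The yolk protein genes Yp1 and Yp2, which the female form of Dsx activates in the fat body, differed by -8.95 and -9.25 between the kinds of array. Yp2 read 4.09 and 3.53 on the array pair, and the other 4 arrays read 12.61 to 13.33. The desaturase gene desatF, now Fad2, which makes the dienes of the female cuticle, was at 2.91 and 2.69 on the pair and between 9.65 and 10.75 on the others. Both values of the pair lay below the lower quartiles of their arrays (2.96 and 3.01), so the size of the difference is not given. By strain none passed the thresholds of the paper. Fmo-2 and Obp99b had unadjusted p under 0.05 in limma, which 4.20% of all probe sets reached. For Fmo-2 the means were 8.87 ± 0.36 for Canton-S and 7.68 ± 0.57 for D18 (SD, n = 3). Obp99b read 11.01, 10.99 and 11.75 on Canton-S replicates 1, 2 and 3, against 10.06, 8.39 and 4.72 on D18 replicates 1, 2 and 3, where D18 replicate 3 was lowest by far. The unadjusted p of Obp99b was 0.0449 from limma. The unadjusted p of Fmo-2 was 0.0205 and its adjusted p = 0.88 from limma. With the kind of array as a block Fmo-2 passed the thresholds, as did 2.38% of all probe sets, at an adjusted p = 0.0516 from limma. Among 8 measured relatives of dsx and somatic regulators out of 9 listed, 4 were below (47.3% of all probe sets) and bab2 was above (17.4% of all), with a median log2 difference of -0.23 against -0.33 for all probe sets. The widest values were those of lola at -5.56, Hr39 at -0.93 and bab1 at 0.75. With a common median no gene of these last 2 lists was above the other 4 arrays, bab2 and nAChRalpha1 included, and after quantile normalization bab2 was. The 15 probe sets of lola, a gene of many splice forms, ranged from -5.56 to 0.76. Of 4 probe sets of Hr39, 3 were below the other 4 arrays.

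**Figure D4:**
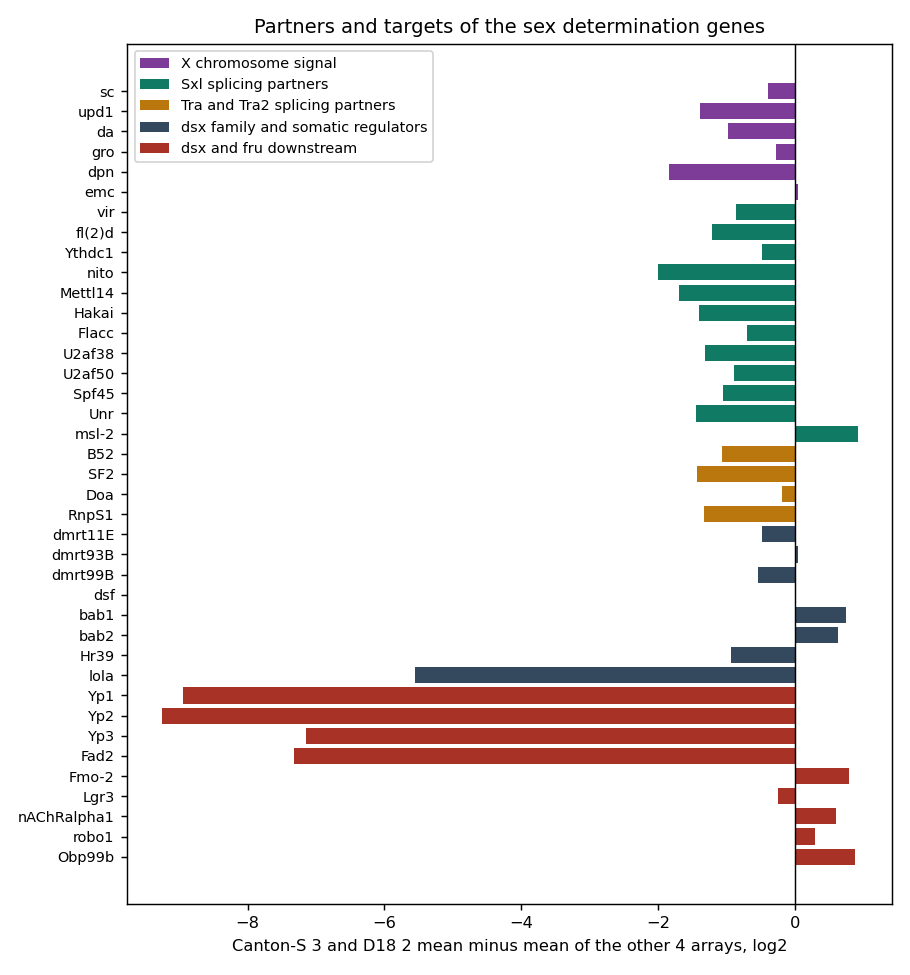
Mean of Canton-S replicate 3 and D18 replicate 2 minus the mean of the other 4 arrays on the log2 scale (horizontal axis) for the partners and targets of the sex determination genes, by the brightest probe set of each gene, with colours for the lists. The bars of Yp1, Yp2 and Yp3 run from -7.15 to -9.25, that of Fad2 rests on pair values below the lower quartiles of their arrays, and that of msl-2 points to the right, to 0.92.

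The genes whose profile over the 6 arrays was nearest to that of a member were found by the root mean square distance between values centred on their own mean, for the brightest probe set of each gene that ranged over at least 1. For ix the nearest were Ets97D, CG15107 and Tcs4, at distances of 0.056, 0.059 and 0.065 on the log2 scale. For tra they were Taf6, CG4036 and stas, at 0.078 to 0.102, and for fru 1631498_a_at they were CG17684, CanA-14F and CG34328, at 0.052 to 0.072. For dsx 1640799_at they were VhaPPA1-2, CG31848 and CG2663, at 0.177 to 0.209, where VhaPPA1-2 was at 7.12 and 6.71 on the pair and between 3.87 and 4.28 on the others. The second probe set of dsx, 1623776_s_at, added after its values were seen, was nearest to Corp, clos and r-l at 0.347 to 0.421. It also had the widest range of the members over the 6 arrays, 5.22. All these distances rest on the same 6 arrays. The brightest probe sets of Sxl, tra2 and her ranged over less than 1 and were not compared.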

How the data were processed

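The authors scanned the arrays and made log2 values in Transcriptome Analysis Console with RMA at its default settings, that is background correction, joint normalization of the arrays and 1 summary value per probe set. The deposited log2 values were used unchanged. Medians of the arrays lay between 4.92 and 5.58. After 183 control probe sets were left out, Canton-S was compared with D18 over 18769 probe sets in limma 3.58.1 (R 4.3.3) with lmFit, eBayes and strain as the only factor. Adjusted p are Benjamini-Hochberg values over all of them. The fit was tested on simulated data with independent arrays and large planted differences. The simulation held no array pair, so it does not show how the fit behaves with one. Tables were made in Python 3.11.15 with pandas 2.3.3 and numpy 2.4.6.

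Probe sets were assigned by the annotation of the array: 13647 name 1 gene, 402 several and 4720 none. The members and lists were chosen with earlier results of these data known. In lists, each gene was given by its probe set with the highest mean. Named were all members, and from each pathway list the 3 genes with the widest difference between the kinds of array and any past the thresholds of the paper by strain. Outside that rule, msl-2, Fmo-2, Obp99b, nAChRalpha1, bab2, Yp3, Lgr3, twe, CycB3, svp and bgcn were named after their values were seen. Genes of the nearest profile were the 3 with the smallest distance. The labels call the replicates biological, and the methods of the paper give 3 independent repeats with RNA extracted a week apart. Neither says that the replicates came from separate cultures, so p-values measure the spread between these samples. The methods place both strains of a repeat in the same RNA extraction. The labels do not say that a replicate number marks such a repeat. The alternatives were a replicate block, other scalings, leaving out the dimmest 40% of probe sets, an intensity trend, no moderation, array weights, the kind of array as a block, and arrays left out.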

Additional observations from a re-analysis of the deposited data

Results flagged for a closer look

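On Sxl 1625620_a_at the array that stands apart differed in opposite directions in the strains. Canton-S replicate 3 was lower than both other Canton-S arrays, by 1.32 on average (a log2 difference of -1.32), and D18 replicate 2 was higher than both other D18 arrays, by 0.50 on average. The difference between the strains was not tested, because each strain has 1 array of this kind.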

How the results depend on the processing

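No member passed the thresholds of the paper under any alternative run, and none reached an adjusted p under 0.05 except with array weights, where 1 did (fru 1624575_a_at), in an estimate of weights that stopped before it converged. Same-numbered arrays deviated from their strain means with correlations of 0.777, -0.93 and -0.861 for numbers 1, 2 and 3. The arrays of the pair carry different numbers, which by itself sets the signs of these correlations. They therefore cannot tell whether equal numbers mark a shared extraction. The main fit did not pair the arrays by number. With the replicate block the count of called members was 0 as well, and it changed no call of a member. The members' small strain differences changed sign in some settings. With array weights these were Sxl 1632915_s_at (-0.25) and tra (0.29). Without the array pair they were tra (0.16), fru 1629904_at (-0.06) and fru 1641338_at (0.06). With quantile normalization it was fru 1629904_at (-0.02), and with a common median fru 1629904_at (-0.13) and her (-0.04). When 1 array was left out, the log2 difference ranged from -0.29 to 0.40 for tra, from -0.70 to 1.25 for dsx 1640799_at, from -0.56 to 2.14 for dsx 1623776_s_at, from -0.04 to 0.65 for fru 1631498_a_at, from -0.12 to 0.10 for fru 1634379_a_at, from -0.04 to 0.13 for fru 1629904_at and from -0.87 to 0.30 for ix. The pair was above the other 4 arrays on 4 members and below on 6, and with a common median on 2 and 10. The median log2 difference of all probe sets between the kinds of array was -0.33 as deposited and -0.8 with a common median. The shares of all probe sets above and below were not counted under that scaling, so nothing is read from the change in these counts. At the thresholds of the paper 239 of all probe sets were called, against 92 with the replicate block, 121 with a common median, 157 without moderation, 981 with array weights, 447 with the kind of array as a block, 514 without the pair, and 130 to 297 when 1 array was left out. An adjusted p under 0.05 was reached by 7, against 0 with the replicate block, 2 with quantile normalization, 1 with a common median, 11 with the low filter, 2 with an intensity trend, 3 without moderation, 1652 with array weights, 95 with the kind of array as a block, 58 without the pair, and 0 to 0 when 1 array was left out. The causes were not tested.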
